A study of Caenorhabditis elegans with 2 samples.

Results

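Exonic peaks near the 3' ends of genes were examined among the ChIP-seq peaks of AMA-1, the largest RNA polymerase II subunit, in whole young adult nematodes (Caenorhabditis elegans). A peak was taken as a member when its summit lay in exactly 1 protein-coding gene body of 2000 bp or more, in an exon of that gene, and past 75% of the gene's length towards its annotated 3' end (the last-quarter segment). Of the 30000 entries in the relaxed peak list that the authors called on pooled reads, 2795 (9.32%, 95% Wilson interval 8.99 to 9.65%) were members. They lay in 1907 of the 9854 genes with at least 1 exon base that could hold a member, which is 19.4% of those genes. The first-quarter segment of the same kind of gene held 2272 exonic summits and the middle-half segment held 3043.

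The data came from chromatin immunoprecipitation and sequencing (ChIP-seq) with an antibody against AMA-1 on whole animals of strain N2, a wild isolate, as a pool of both sexes, with 2 biological replicates in 1 group and no treatment named. All tissues of the animal are mixed in such a sample, the age is labelled unknown, and no second condition was analysed here. The relaxed lists were made to feed a reproducibility procedure (the irreproducible discovery rate, IDR) and are labelled as peaks together with background, so a member of low rank need not mark bound polymerase. The number of reads behind the lists is unknown.

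RNA polymerase II transcribes protein-coding genes. Past the end of the coding sequence it meets the signal at which the transcript is cleaved and polyadenylated, and it slows and is released over a stretch downstream of that site. In the compact genome of C. elegans many genes end close to, or overlap, the end of a gene on the opposite strand (a convergent neighbour), and other genes lie in a row on the same strand (tandem neighbours), in part in operons. ChIP-seq does not record which strand the polymerase was reading, so at a convergent gene end the 2 genes cannot be told apart.

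Windows from the reference genome (WBcel235, the build called ce11) show where strong members sat. They were drawn from the coding members among the 12 strongest by the authors' signal value, leaving out windows that touch an untranslated region (UTR), and are written 5' to 3' on the strand of the gene. In the first pair the summit lay close to a small RNA gene inside the host gene. The capitals mark the 30 bases of that small RNA gene nearest to the summit, which lies 50 bases before the right end of the window.

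F58G1.7 (chrII:12944694-12944832, minus strand): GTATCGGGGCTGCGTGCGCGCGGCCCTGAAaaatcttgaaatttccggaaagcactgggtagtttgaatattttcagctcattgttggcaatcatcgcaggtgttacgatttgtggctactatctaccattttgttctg

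F01D5.10 (chrII:14018244-14018383, minus strand): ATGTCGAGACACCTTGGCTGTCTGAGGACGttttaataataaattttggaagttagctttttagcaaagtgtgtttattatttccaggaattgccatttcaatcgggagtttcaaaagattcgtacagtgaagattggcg

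The small RNA gene is sup-6, annotated as a small nuclear RNA, in the first window and the small nucleolar RNA gene F01D5.12 in the second, both on the strand of their host gene. The summits lay 59 and 60 bp from them. In the next pair, the coding end of a gene that meets a convergent neighbour, the capitals mark the summit and the 10 bases to each side of it.

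coq-6 (chrV:9338658-9338758, plus strand): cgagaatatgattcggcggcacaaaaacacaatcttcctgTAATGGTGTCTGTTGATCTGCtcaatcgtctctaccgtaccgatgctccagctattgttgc

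best-18 (chrIII:10214640-10214740, plus strand): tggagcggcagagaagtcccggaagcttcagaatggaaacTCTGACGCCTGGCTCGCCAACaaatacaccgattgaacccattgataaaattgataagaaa

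These windows lie whole in coding sequence. The coq-6 summit was 150 bp from the gene's annotated 3' end and the best-18 summit 140 bp from its own. The third pair, marked the same way, shows coding members in long genes whose next gene is in tandem.

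mnk-1 (chrII:10545481-10545581, minus strand): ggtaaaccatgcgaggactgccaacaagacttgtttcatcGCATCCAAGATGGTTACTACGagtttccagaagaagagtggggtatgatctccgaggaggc

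nurf-1 (chrII:14407494-14407594, plus strand): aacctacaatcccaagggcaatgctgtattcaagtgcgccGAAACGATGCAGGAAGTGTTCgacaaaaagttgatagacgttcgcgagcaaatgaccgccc

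Over these windows of coq-6, best-18, mnk-1 and nurf-1 the G+C content was 46.5% in the first pair and 49.5% in the second. In 200 bp around the summit, the median over members was 38.5% (40.5% for members of the authors' optimal IDR list), against 37.5% over all exon bases that could hold a member.

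The density of exonic summits was high at the start of genes, lowest in the later part of the body and higher again at the end. Density was counted per megabase (Mb) of eligible exon sequence, meaning exon bases covered by exactly 1 protein-coding gene body of at least 2000 bp, so that the larger share of exon at gene ends does not enter. The last-quarter segment held 393 members per Mb (95% Poisson interval 379 to 408) over 7.11 Mb. The first-quarter segment held 489 (469 to 510) and the middle-half segment 326 (315 to 338). In the list of replicate 1 the values were 429 in the last-quarter segment, 503 in the first and 348 in the middle. Replicate 2 gave 362, 455 and 304. The order first, last, middle was the same in both whole replicate lists, and in each the last-quarter segment exceeded the middle-half segment by more than their Poisson intervals, which cover counting error only. Among the 1103 strongest peaks of replicate 1 the last-quarter segment had 19.56 per Mb (16.45 to 23.1) and the first 18.95 (15.19 to 23.3), so the order of those 2 turned, within overlapping intervals. Among the 1103 strongest of replicate 2 they had 14.22 (11.58 to 17.3) and 21.3 (17.32 to 25.95). In bins of 5% of the gene length, the pooled density was 663 per Mb in the first bin, 266 from 65 to 70% of the length, 332 from 75 to 80% and 429 in the last bin.

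**Figure D1:**
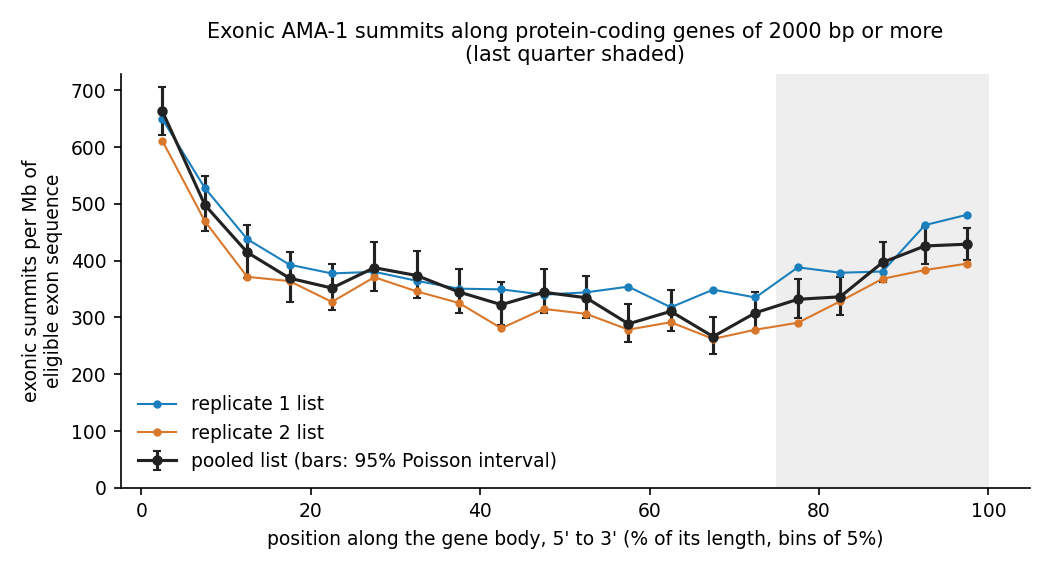
Summits per Mb of eligible exon sequence (vertical axis) in 20 bins along the gene body from the 5' to the 3' end (horizontal axis, percent of gene length), for the pooled list with 95% Poisson intervals and for each replicate list. In the shaded last-quarter segment the pooled density goes from 332 per Mb in its first bin to 429 in its last, and the first bin of the gene has 663.

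Over the whole last-quarter segment the density was higher in 3' UTRs than in coding sequence, in the pooled list and in each replicate list. By the annotation, 1628 members (58.2%) had their summit in coding sequence, 1133 (40.5%) in a 3' UTR that is not coding in any transcript, and 34 in another kind of exon. Within the last-quarter segment the density was 517 per Mb in 3' UTR (488 to 548) and 335 in coding sequence (319 to 351). In replicate 1 these were 524 and 385, and in replicate 2 they were 475 and 307. Coding sequence of the middle-half segment had 318 per Mb (306 to 329), so coding sequence of the last-quarter segment was 1.05 times as dense in the pooled list, where the intervals overlapped. In replicate 1 it was denser beyond the intervals, at 385 (368 to 403) against 345 (333 to 358), and in replicate 2 the values were 307 (292 to 323) and 294 (283 to 305). For pooled peaks at the highest q-value level they were 64.9 (57.98 to 72.5) and 47.8 (43.4 to 52.6). Among optimal peaks the coding density was 15 per Mb in the last-quarter segment (11.8 to 18.9) and 7.30 in the middle-half segment (5.63 to 9.30). Optimal peaks in 3' UTR of the last-quarter segment had 17.8 per Mb (12.7 to 24.3), an interval that overlaps that of coding sequence there. Last exons took 63.8% of members and 54.1% of eligible bases.

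Members were not densest at the annotated end itself. In the last 50 bp before the 3' end the pooled density was 320 per Mb, and from 50 to 100 bp it was 298. It was 479 from 100 to 150 bp, 496 from 300 to 400 bp and 342 from 400 to 500 bp. In replicate 1 the density was 332 in the last 50 bp, 440 from 50 to 100 bp (381 to 505) and 442 from 100 to 150 bp. Replicate 2 had 320, 309 (260 to 365) and 392 in these bins. The low pooled value from 50 to 100 bp was thus not seen in replicate 1. Optimal members were densest from 150 to 200 bp before the end, where 21 of the 114 lay (47.5 per Mb, 29.4 to 72.7), against 9.69 per Mb in the last 50 bp. Among the 1103 strongest peaks of replicate 1 the densest bin was 300 to 400 bp (43.2 per Mb, 28.9 to 62.0). From 150 to 200 bp they had 38.5 (22.4 to 61.6). Among the 1103 strongest of replicate 2 the densest bin was 150 to 200 bp (31.7, 17.3 to 53.2). The median distance from summit to 3' end was 409 bp for members, 282 bp for optimal members and 454 bp for eligible bases. The farthest member, in the muscle gene unc-89, lay 13629 bp from the end of its gene. A summit was placed at the exact middle of its interval for 97.4% of members and 51.8% of optimal members, which limits how finely such distances can be read.

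The position of the next gene went with a difference in density of over 2 times. Where the next protein-coding gene was convergent and its 3' end lay within 250 bp of the base in question, the last-quarter segment held 812 members per Mb (738 to 890). Where a convergent neighbour ended more than 500 bp away the density was 342. The ratio was 2.37 (2.11 to 2.67) in the pooled list, 2.22 (1.97 to 2.49) in replicate 1 and 2.29 (2.02 to 2.60) in replicate 2. For the 114 optimal members it was 5.79 (3.38 to 10.1). For optimal members in coding sequence the ratio was 14.4 (7.62 to 28.4), from 30 summits within 250 bp and 16 beyond 500 bp. For those in 3' UTR it was 1.12 (0.31 to 3.88), from 6 and 7 summits. Those bases close to a convergent end were 7.77% of eligible last-quarter bases and held 16.03% of all members and 31.6% of optimal members. The 250 bp distance was chosen after these values were seen.

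This difference was larger in coding sequence than in 3' UTR. In coding sequence the density was 957 per Mb within 250 bp of a convergent 3' end and 295 beyond 500 bp, a ratio of 3.24 (2.75 to 3.799). In replicate 1 that ratio was 2.93 and in replicate 2 it was 3.03. In 3' UTR the densities were 709 and 508, a ratio of 1.39 (1.15 to 1.69). Within 250 bp of a convergent 3' end coding sequence was thus denser than 3' UTR, the reverse of the order over the whole last-quarter segment. In replicate 1 the densities there were 970 and 699. In replicate 2 they were 792 (681 to 915) and 640 (556 to 734), with overlapping intervals. Beyond 500 bp from a convergent neighbour, coding sequence of the last-quarter segment (295 per Mb, 271 to 322) was no denser than coding sequence of the middle-half segment. Among bases less than 250 bp from the gene's own 3' end the difference was there too, with 808 per Mb near a convergent 3' end and 238 beyond 500 bp from one (ratio 3.40, 2.68 to 4.34).

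Tandem neighbours went with a smaller difference, whose interval lay clear of 1 in replicate 1 alone. A difference between the replicates themselves was not tested. Within 250 bp of the 5' end of a tandem neighbour the pooled density was 402 per Mb (316 to 504) and beyond 500 bp it was 342, a ratio of 1.17 (0.915 to 1.49). The ratio was 1.56 (1.27 to 1.90) in replicate 1 and 1.18 (0.915 to 1.51) in replicate 2. Counted by gene, 29.4% of the 1146 genes with a tandem neighbour starting 0 to 250 bp past their end held a last-quarter exonic summit in replicate 1 (26.8 to 32.1%), against 18.7% in replicate 2 (16.52 to 21.03%). Over all eligible genes those shares were 22.6% and 17.6%.

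**Figure D2:**
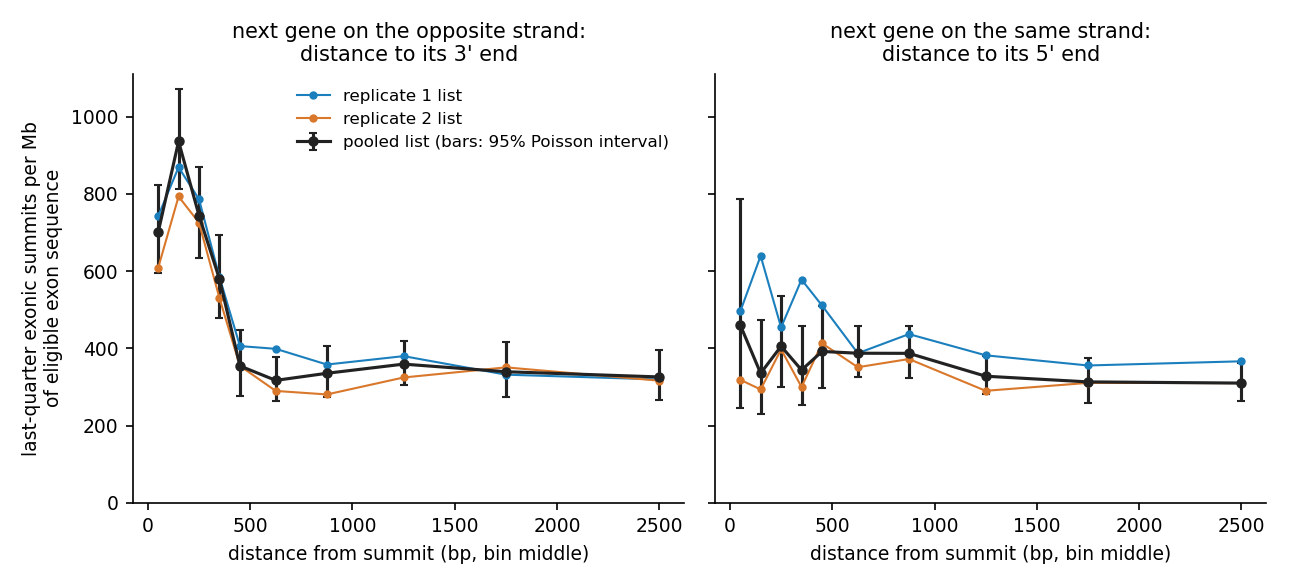
Last-quarter exonic summits per Mb of eligible exon sequence (vertical axis) against the distance from the summit to the near end of the next protein-coding gene (horizontal axis, bp), for convergent (left) and tandem neighbours (right), in the pooled list with 95% Poisson intervals and in each replicate list. On the left the pooled density is highest from 100 to 200 bp, at 936 per Mb, and is 354 from 400 to 500 bp. On the right the highest pooled bin has 460.

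Genes were also counted, split by whether the pooled list had a summit near their own start. For this split a summit in the first-quarter segment counted whether or not it lay in an exon. Among genes with no pooled summit in their first-quarter segment, 17.1% of the 1810 with a convergent neighbour overlapping or within 250 bp of their end held a member (15.4 to 18.9%). Of the 1027 such genes whose convergent neighbour lay more than 500 bp away, 3.603% did (2.63 to 4.93%). In replicate 1 these shares were 21.7% and 7.40%, and in replicate 2 they were 14.1% and 2.73%. Among genes with a summit in the first-quarter segment the shares were 50% of 910 (46.8 to 53.2%) and 39.9% of 321 (34.7 to 45.3%). In replicate 1 these were 47.5% (44.2 to 50.7%) and 42.1% (36.8 to 47.5%), with overlapping intervals, and in replicate 2 they were 46.7% (43.5 to 49.95%) and 35.5% (30.5 to 40.9%). The state of the neighbour also differed. A neighbour could be of any length. Its first-quarter segment was searched for a pooled summit, or its first 300 bp where that stretch was longer. There were 309 genes with a member, no first-quarter summit and a close convergent neighbour. Of these, 54.05% had a neighbour with a pooled summit in the stretch searched (48.5 to 59.5%). Of the 1501 such genes without a member, 17.5% had a neighbour with one (15.7 to 19.5%). Among genes with a summit of their own in the first-quarter segment the gap was smaller. Such a neighbour was there for 48.1% of the 455 with a member (43.6 to 52.7%) and 30.1% of the 455 without (26.1 to 34.5%).

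Of the 12 strongest members, which lay in 11 genes, 6 had a convergent neighbour ending within 250 bp of the summit. M01H9.3, on chromosome IV, had its summit in the 3' UTR at rank 22 of the pooled list, 50 bp from the end of M01H9.5, with an overlapping peak at rank 38 in replicate 1 and 22 in replicate 2. The summit in coq-6, which encodes a monooxygenase of ubiquinone synthesis, ranked 46 in the pooled list, 95 in replicate 1 and 48 in replicate 2. It lay 151 bp from the end of tos-1, a gene used as a target in splicing studies. Both peaks were strong in each replicate, and replicate 2 ranked each about as the pooled list did.

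The best-18 summit (rank 53, with 134 in replicate 1 and 40 in replicate 2) was 81 bp from the end of cts-1, the citrate synthase gene of the tricarboxylic acid cycle. In T19A5.3 the summit (rank 79, with 289 and 68) was 75 bp from the end of unc-23, whose product is a co-chaperone. The glt-6 summit (rank 83, with 330 and 59) was 164 bp from the end of vdac-1, the mitochondrial outer-membrane channel gene, while glt-6 itself encodes a glutamate transporter. In lelo-2 the summit (rank 90, with 98 and 175) was 152 bp from the end of Y82E9BR.3. Replicate 2 gave the member the better rank in 5 of the 6 pairs, and replicate 1 did so in lelo-2.

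**Figure D3:**
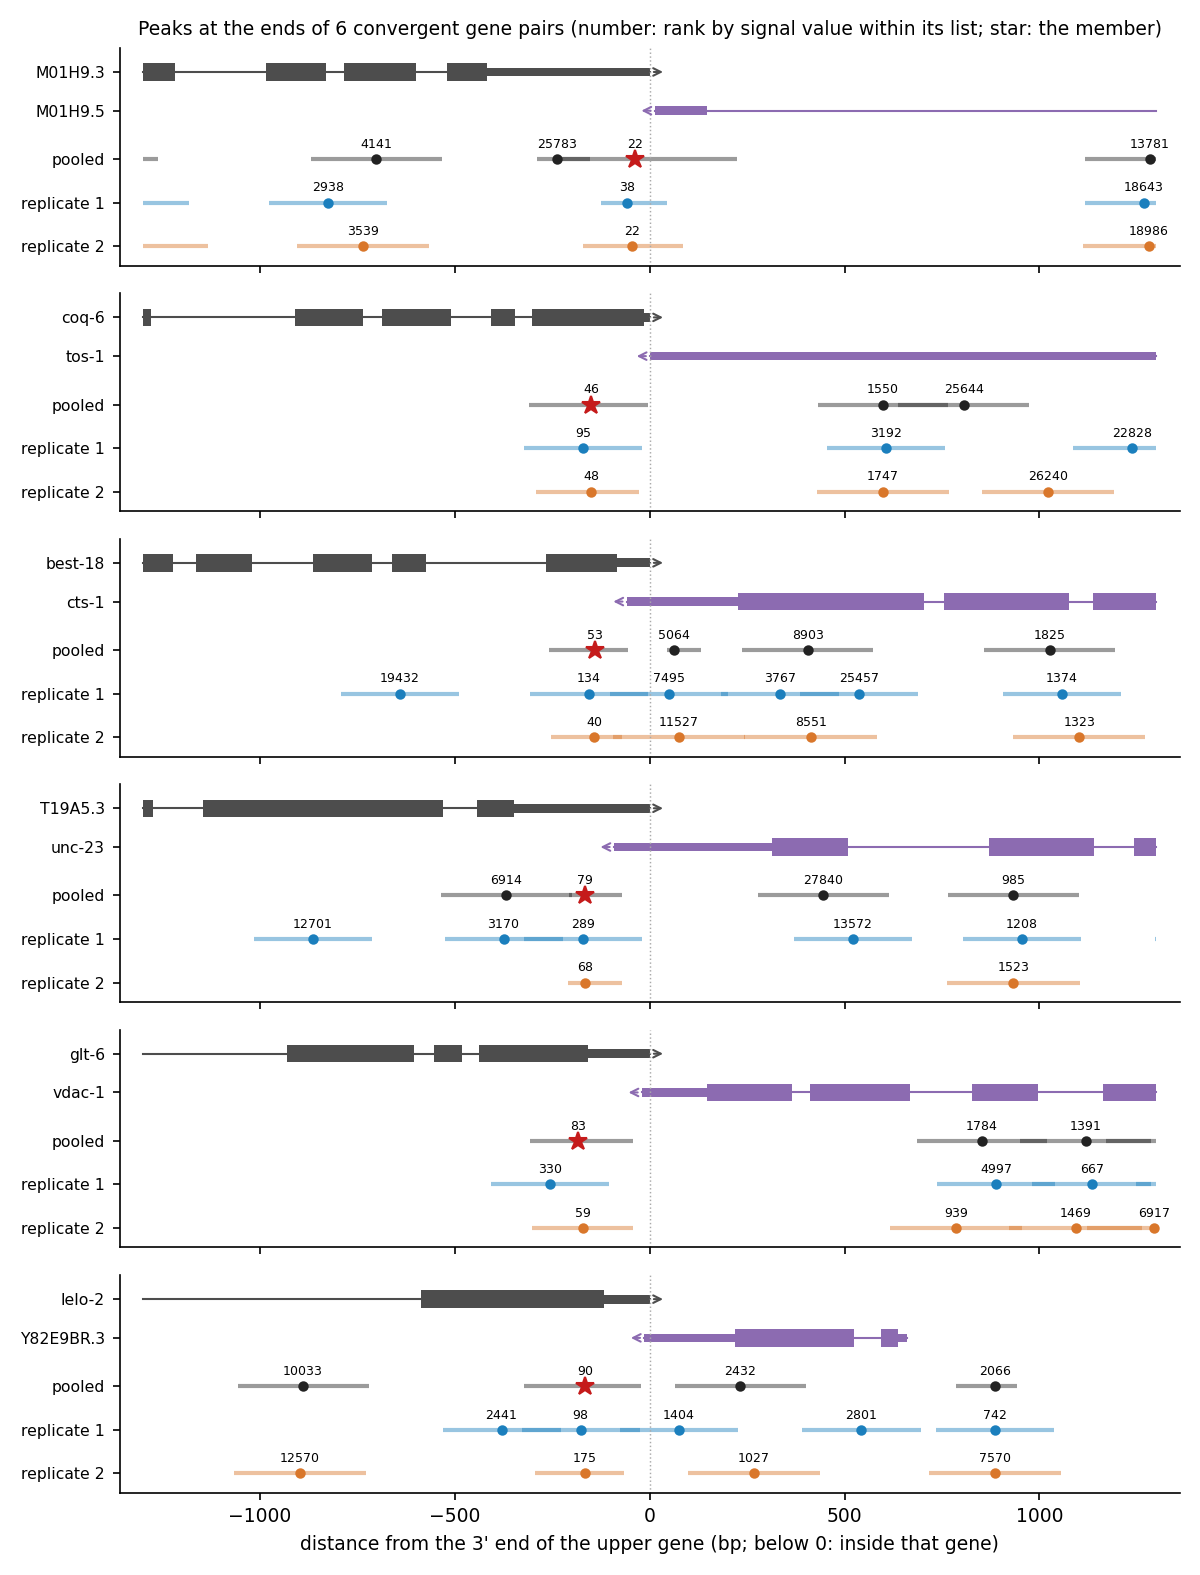
Maps of the 6 convergent pairs among the 12 strongest members, with the distance from the 3' end of the upper gene on the horizontal axis (bp), coding exons as tall boxes, other exons as low boxes, and peak intervals (bars) and summits (points, with rank within the list) for the pooled, replicate 1 and replicate 2 lists. The starred members lie 37 to 184 bp inside the upper gene, and each replicate list has a summit within 100 bp of each of them.

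The other strong members lay elsewhere relative to the next gene. F58G1.7 ranked 5 in the pooled list, with its summit 816 bp from the end of the convergent gene arrd-10. An overlapping peak ranked 5 in each replicate. F01D5.10 ranked 14, with overlapping peaks at 70 in replicate 1 and 11 in replicate 2. In both genes replicate 2 had a last-quarter exonic summit and replicate 1 had none, so the overlapping replicate 1 peaks had their summits elsewhere. Both genes carry the small RNA genes shown above. On chromosome I, mstr-1 (rank 25, with 211 and 15) has an end that the tandem gene kin-14 overlaps by 14 bp. mnk-1, a kinase acting downstream of MAP kinases, held summits at ranks 78 and 81, and its next gene, pro-1, starts 424 bp past its end. nurf-1, which encodes a subunit of the NURF chromatin remodeller, held a summit at rank 88 in an interval 1891 bp wide, overlapped by peaks ranked 934 in replicate 1 and 56 in replicate 2. All 6 of its members were optimal, and 4 of them share that interval.

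Members close to small RNA genes were few, but among optimal members they made up a larger share. Within 250 bp of an annotated snoRNA, snRNA, tRNA or miRNA gene lay 24 members (0.859%), against 0.570% of eligible bases. Over all pooled entries the share was higher, at 1.6%. It was 0.924% for first-quarter peaks and 0.822% for middle-half peaks. Of the 114 optimal members 8 were that close (7.02%, 3.599 to 13.2%). The share over the whole optimal list was not counted, so this rise cannot be called particular to last-quarter peaks. Besides F58G1.7, F01D5.10 and mnk-1 these 8 were in E01G4.3, rol-3, pcyt-2.1, Y53F4B.12 and C15F1.5, with ranks of 91 to 411. All 8 were overlapped by a peak in both replicate lists. This distance measure, too, was chosen after the values were seen.

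Members were about as strong as other pooled peaks. Of the members, 114 (4.08%, 3.41 to 4.88%) were in the optimal list, which holds the 1103 strongest pooled entries, or 3.68% of the list. At the highest −log10 q-value in the list, 4.05, stood 540 members (19.3%) and 18.5% of all entries. Their median rank was 14883 of 30000. First-quarter peaks were in the optimal list in 4.45% of cases and middle-half peaks in 2.56%. Optimal members lay in 94 genes, 0.954% of the eligible genes.

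Both replicate lists had a peak overlapping the member by at least 1 bp for 1516 members (54.2%, 52.4 to 56.1%), against 50.2% of all pooled entries. Replicate 1 overlapped 69.4% of members and 61.5% of all pooled entries. Replicate 2 overlapped 81.5% of members and 84.9% of all entries. Another 424 members were overlapped in replicate 1 alone, 763 in replicate 2 alone and 92 in neither. Of the 114 optimal members 109 were overlapped in both. The exceptions were pqn-48, R107.5 and vit-6, which had no peak in replicate 2, and gadr-6 and arf-1, which had none in replicate 1. The optimal list comes from the reproducibility procedure, so overlap of its members in both lists was favoured by how it was made. The same share over all optimal entries was not counted. An overlap did not mean a like rank, since the overlapping peaks of optimal members reached down to rank 15762 in replicate 1 and 6733 in replicate 2. Since the replicate lists are drawn from the reads that were pooled, overlap with them is not an independent repeat of the pooled list.

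**Figure D4:**
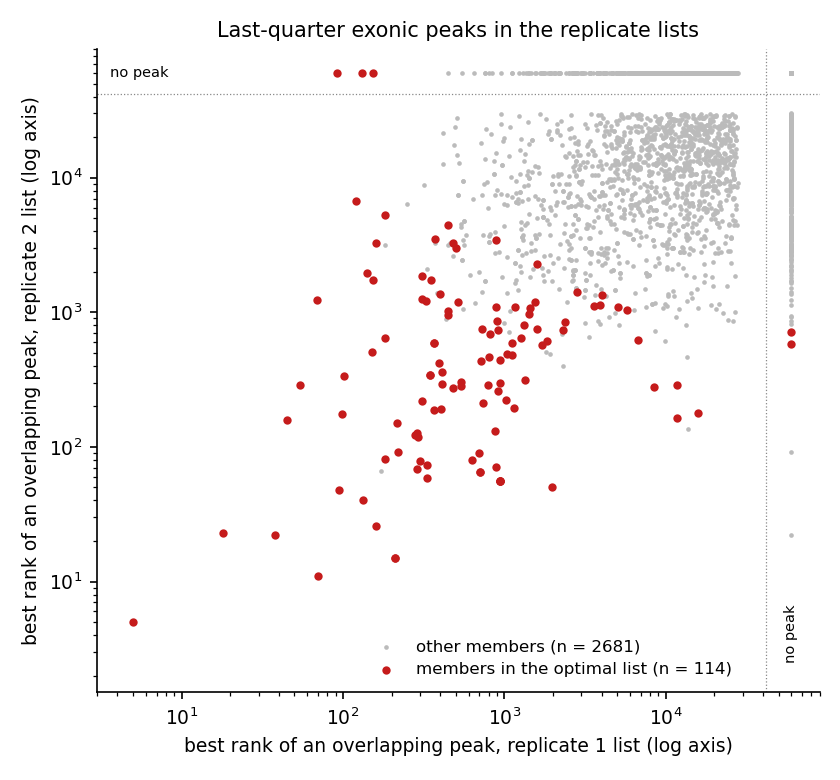
Best rank of a peak overlapping each member in the replicate 1 list (horizontal, log axis) and in the replicate 2 list (vertical, log axis), with members lacking an overlapping peak set beyond the dotted lines. Of the 114 optimal members (red), 2 lack a peak in replicate 1 and 3 lack one in replicate 2, while the other members (grey) spread over most ranks.

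Genes with a member often carried other polymerase peaks. Of the 1907, 67.5% also held a pooled summit, exonic or not, in their first-quarter segment (65.4 to 69.6%), against 21.2% of the 7947 eligible genes without a member. In the 500 bp past the 3' end, 59.7% of genes with a member had a pooled summit and 16.46% of the others did. Genes with a member were longer, with a median of 4660 bp against 3452 bp. The share of genes with a member was 13.1% at 2000 to under 3000 bp of length and 35.98% from 10 kb upwards, while the density per eligible Mb was 328 and 466 in those classes.

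In 1350 genes there was 1 member, and 557 genes held 2 or more. unc-22, the gene of the giant muscle protein twitchin, held 13 members, with 12 in replicate 1 and 10 in replicate 2. The strongest of them ranked 4790 in the pooled list, and none was optimal. ell-1, named for an elongation factor of RNA polymerase II, held 9 members (8 and 9 in the replicates). lit-1, the Nemo-like kinase gene, held 8 (4 and 8), daf-2, the insulin receptor gene, 8 (7 and 5), and unc-89, the gene of the muscle protein obscurin, 8 (4 and 7). These genes are 21214 to 55184 bp long, and per eligible kb they held 1.30 to 3.17 members.

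Lists of genes expressed in the tissues of the animal differed in how many of their eligible genes held a member, and are read here against the 19.4% over all eligible genes. Since longer genes held a member more often, and the median length of a list ran from 3048 to 10460 bp against 3620 bp over all eligible genes, the members per eligible Mb are given too, against 393 over all. They were 1211 for chaperones, 1173 for glycolysis and central metabolism, 906 for autophagy, stress and longevity, 729 for the vacuolar and traffic list, 689 for epidermis, 676 for muscle and 649 for splicing. Germline genes had 567, translation factors 529 and the polymerase and termination list 411. Lower than the value over all genes were intestine and yolk at 328, basement membrane and cytoskeleton at 325 and neurons at 277. These list densities have no interval, and a few genes with many members can carry them. The 37 members of the muscle list lay in 12 genes, and unc-89 alone held 8 of them. The densities were not recounted without such genes. Of the chaperone genes, 14 of 24 held a member (58.3%, 38.8 to 75.5%), with 17 in replicate 1 and 11 in replicate 2. hsp-110, a large heat shock protein gene of the Hsp70 superfamily, had the strongest, in its 3' UTR at rank 169, with 1987 in replicate 1 and 50 in replicate 2. hsp-90, the cytosolic chaperone gene, held members at ranks 397 and 1976, both in coding sequence. In pdi-2, a protein disulfide isomerase gene, the summit was 14 bp from the gene end at rank 330, with rank 15762 in replicate 1 and 180 in replicate 2. hsp-6, the mitochondrial Hsp70 gene, had members at ranks 840 and 6790. These 4 genes each held an optimal member, which 0.954% of eligible genes did.

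Of genes of glycolysis and central metabolism, 19 of 35 held a member (54.3%, 38.2 to 69.5%), with 23 in replicate 1 and 18 in replicate 2. In icl-1, the bifunctional glyoxylate cycle gene, the member ranked 147. Its interval of 3635 bp, the widest of any member, spans most of the gene of 3673 bp. The best overlapping peak ranked 18 in replicate 1 and 23 in replicate 2, but over so wide an interval it may lie anywhere along the gene. The replicates had 3 and 2 last-quarter exonic summits there. enol-1, the enolase gene, had its member at rank 1002, and pck-2, a phosphoenolpyruvate carboxykinase gene, at rank 1154. Of splicing and RNA-binding genes 12 of 26 held one, led by tos-1 at rank 1550. Of autophagy, stress and longevity genes 12 of 26 did, led by the AMP-activated kinase gene aak-2 at rank 3006, and 9 of 21 genes of the vacuolar ATPase, lysosome and membrane traffic did, led by the coatomer gene copb-1 at rank 5861.

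Among tissue lists, epidermis, cuticle and moulting genes stood at 14 of 26 (53.8%), but with 8 in replicate 1 and 16 in replicate 2. The fatty acid synthase gene fasn-1 led them at rank 2176, with no overlapping peak in replicate 1 and rank 1784 in replicate 2. Body wall and pharyngeal muscle genes stood at 12 of 32 (11 in each replicate), and genes of basement membrane and cytoskeleton at 10 of 26, led by the filamin gene fln-1 at rank 5214. The basement membrane and cytoskeleton list has the longest genes, with a median of 10460 bp, and its density lay below that of all eligible genes. Neuronal genes stood at 10 of 45 (22.2%). Their strongest member, in the touch receptor channel gene mec-4, ranked 651 and lay 107 bp from the convergent end of aak-2, a gene of another list.

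Some lists had unlike counts in the replicates, a difference that was not tested. Germline, oocyte and embryo genes stood at 12 of 42 (28.6%), with 17 in replicate 1 and 7 in replicate 2. puf-5, an oocyte RNA-binding gene, led them at rank 2378, with 489 in replicate 1 and 17461 in replicate 2. Translation factors and aminoacyl-tRNA synthetases stood at 7 of 31 (22.6%), but at 19 in replicate 1 and 8 in replicate 2. Their strongest member, in the elongation factor gene eef-1A.2, ranked 3657 and had no overlapping peak in replicate 1. Intestine and yolk genes stood at 4 of 21, with 5 in replicate 1 and 0 in replicate 2. vit-6, a yolk protein gene, had 3 members, the strongest at rank 1034 and rank 153 in replicate 1, and vit-2 had 2, and replicate 2 had no peak overlapping any of these 5. A count of 0 of 21 genes allows a share of up to 14.3% when the limit is set at 3 counts, which is not a Wilson bound and covers counting error only.

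Genes of RNA polymerase II, elongation, cleavage and termination stood at 7 of 28 (25%, 12.7 to 43.4%), an interval that holds the background. pcf-11, a factor of cleavage and termination, led them at rank 7829 with no overlapping peak in either replicate. Replicate 1 did hold 2 last-quarter exonic summits in that gene, outside the pooled interval, and replicate 2 held 0.

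**Figure D5:**
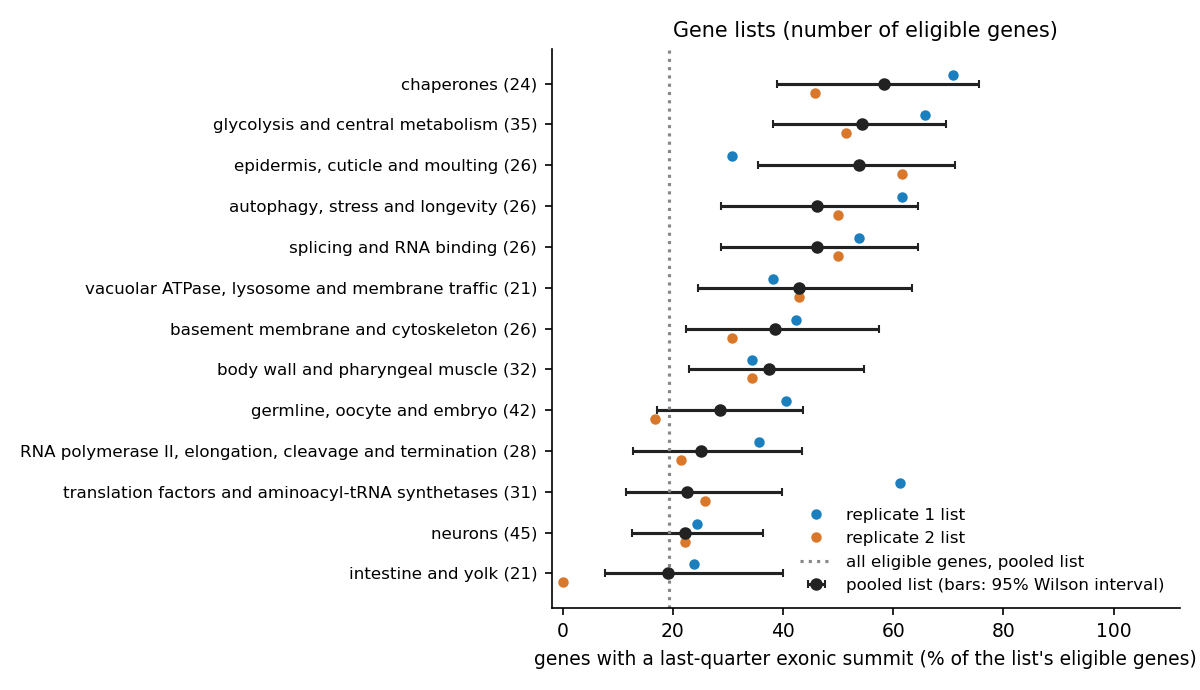
Share of each list's eligible genes that held a last-quarter exonic summit (horizontal axis, percent) in the pooled list with 95% Wilson intervals, and in each replicate list, with the number of eligible genes in brackets and the value over all eligible genes as a dotted line. Chaperones (58.3%) and glycolysis and central metabolism (54.3%) are highest, and translation factors differ most between replicate 1 (61.3%) and replicate 2 (25.8%).

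By chromosome, the pooled density was 506 members per Mb on III (465 to 550), 428 on I, 411 on IV, 378 on II, 345 on V and 311 on X (281 to 343). On the autosomes replicate 1 had the higher density in each case, by 353 to 327 on V and 503 to 373 on I. On X the order was the other way, with 253 per Mb in replicate 1 (226 to 282) and 327 in replicate 2 (296 to 360). Optimal members were densest on II (28.2 per Mb, 19.2 to 40.1) and least dense on IV (8.67, 4.16 to 15.9) and X (9.50, 4.91 to 16.6). Of the 31 optimal members on II, 6 lay in nurf-1, some in the same interval. The Poisson interval treats them as separate, and the density was not recounted without them. The strongest member on X, in F46H5.3, ranked 199, with 311 in replicate 1 and 221 in replicate 2.

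The density varied with base composition. Eligible bases with a G+C content under 30% in 200 bp had 260 members per Mb and 2.34 optimal members per Mb. From 40 to under 45% the values were 464 and 21.3. In replicate 1 the density stayed at 522 per Mb above 50%, and in replicate 2 it was 316 there. The letters AATAAA, the common polyadenylation signal, were searched on the gene's strand in the 200 bp around each summit. They were found for 13.5% of members and 16.6% of eligible last-quarter bases. Among members in 3' UTR the share was 18.5%, against 27.7% of such bases, and among coding members it was 10.1% against 11.7%. The opposite strand and other motifs were not searched.

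At the limit of the rule, the members closest to it were in W06H8.6, at 75.01% of the gene's length, and B0250.18, at 75.02%, with pooled ranks 29876 and 24048. Just outside stood exonic peaks in C06A6.4 at 74.97% (rank 21789) and nxf-1 at 74.96% (rank 2115).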

How the data were processed

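AMA-1 ChIP-seq peaks of 2 biological replicates, per the labels, were read from the deposited lists on ce11 (WBcel235): a relaxed list per replicate, a relaxed list on pooled reads and the optimal IDR list. Per the file headers of the deposited notes, relaxed lists were made from alignments with a control, which was not used here. Which aligner and peak caller were used is not given in these sources. The signal column is a score and the q column a −log10 q-value, both as the authors deposited them. Signal scales differ between lists, so peaks were compared by rank within a list. Read depth is unknown, which leaves the precision of a single peak unknown.

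Genes, exons and coding sequence came from Ensembl release 115, and bases from RefSeq's WBcel235. A gene was eligible when at least 2000 bp long, and density was summits per Mb of exon bases covered by exactly 1 protein-coding gene body. Intervals are 95% Wilson for shares, exact Poisson for densities and exact conditional binomial for ratios of densities. They cover counting error only, and treat members of the same gene or interval as separate. There is 1 group, so no test between conditions was made and no p-value is given. Replicates are given side by side, and 0 columns of other samples were present.

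The members and gene lists were chosen with earlier results of these data known. Named were the 12 strongest members, the strongest in coding sequence, in 3' UTR, on each chromosome and of each list, the 5 genes with the most members, and the peaks next to the limit. Other named genes, the neighbour and small RNA distances, the G+C classes and the motif were chosen after their values were seen. The placement of summits and the density calculation were tested on simulated peaks, and the share calculations were not. Alternatives varied the list, the replicates, the gene length, the coding rule and the overlap. Python 3.11.15, NumPy 2.4.6, pandas 2.3.3, SciPy 1.17.1, statsmodels 0.14.6 and Matplotlib 3.10.9 were used.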

Additional observations from a re-analysis of the deposited data

How the results depend on the processing

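Across 14 results and 65 alternatives, 28 values stayed within the tolerance set for them and 37 moved beyond it. Only the ratios of the last-quarter density to the first-quarter and middle-half segments have a direction. In every alternative the last-quarter density stayed below the first-quarter density and above the middle-half density. The turned order among the strongest peaks of replicate 1, given above, is not one of the 65 alternatives. For the number of members that tolerance was wide, at 1.5 times. The number was 1628 with coding sequence only, 1880 where no other protein-coding gene lay within 500 bp of the summit, 2280 and 3354 with minimum gene lengths of 3000 and 1000 bp, 2441 and 3287 in the last-fifth and last-third segments, and 2568 to 3049 when a replicate list replaced the pooled one, with 362 to 429 members per Mb. In the optimal list alone the density was 16.05 per Mb, the ratio to the first-quarter segment 0.738 (0.804 as reported), the ratio to the middle-half segment 1.92 (1.21 as reported), the coding share 64.04% and the 3' UTR share 34.2%. At the highest q the density was 76.0 per Mb and the ratios were 0.742 and 1.496. With coding sequence only they were 335 per Mb, 0.706 and 1.05, and with genes of at least 3000 bp the ratios were 0.849 and 1.25. Leaving out a replicate gave ratios to the first-quarter segment of 0.794 to 0.854, coding shares of 58.2 to 61.5% and 3' UTR shares of 37.7 to 40.5%. Counting UTR before coding gave a 3' UTR share of 42.6%.

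The share of members in the optimal list was 2.18% for the stronger part of that list (its upper 50%), 7.41% for the strongest pooled entries up to 2 times its length, and 19.3% at the highest q. Overlap by at least 50% of both peaks put replicate 1, replicate 2 and both at 51.2%, 71.8% and 31.99%. Summits within 100 bp gave 44.3%, 66.6% and 24.7%. Over all pooled entries the share in both was then 31.2% and 23.5%. With lists cut to the same length, replicate 2 stood at 78.9% and both at 52.3%. Median G+C was 40% in 100 bp and 37% in 400 bp. The share of members whose gene end was overlapped by a tandem gene or had one within 250 bp was 14.1%, within 1000 bp 27.3% and within 500 bp 19.6%, and for a convergent gene 37.8%, 45.8% and 42.4%. The first-quarter share was 76.7% with 500 bp upstream added and 58.5% for summits within 300 bp of the 5' end. The cause of these shifts was not tested. No paired analysis was possible because there is 1 group and no result comes from a test. Unknown depth limits what a missing peak in a replicate can show.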
